A study of Mus musculus with 6 samples.

Results

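The AP-1 and immediate early factors described here are 10 genes, Fos, Fosb, Fosl1, Fosl2, Jun, Junb, Jund, Atf3, Egr1 and Ier2, among the 53700 mouse genes of the deposited expression table. They were taken by gene symbol, and each symbol named 1 Ensembl identifier. The RNA came from SL4, a luciferase-expressing mouse CRC cell line. The pLV-Control group holds 3 libraries of SL4 cells without SEMA6A overexpression, and the pLV-SEMA6A group holds 3 libraries of SL4 cells that stably carry a lentivirus for SEMA6A. The labels do not say whether the control cells received an empty virus, and no second SEMA6A line is described, so SEMA6A and a chance difference between lines cannot be told apart. The sources used here do not say whether the libraries of a group came from separate cultures, and p-values then measure only the spread between these libraries, which may be technical. The serum state of the cells and the time of harvest are not given in the sources used here.

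Immediate early genes are switched on within minutes of a stimulus such as serum or a growth factor, without new protein synthesis, and many of them encode transcription factors. AP-1 is a dimer of bZIP proteins, in which a basic region grips DNA and a leucine zipper joins the partners. JUN proteins can pair with each other or, more stably, with FOS proteins, which do not pair among themselves. In epithelial cancers AP-1 is known for its part in growth, invasion and the response to RAS and MAP kinase signaling.

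Expression was read as TPM, a unit that the file does not name and that was inferred from the column sums and the dependence of low values on gene length. TPM corrects for transcript length, so that levels of different genes can be compared within a library, and keeps no read depth. Sema6a was listed at 0 TPM in all pLV-Control libraries and reached 98.7 to 118 TPM in pLV-SEMA6A. Markers of colon epithelium were close to absent, with a sum over 8 markers of 0.13 to 0.49 TPM in pLV-Control, against 0.25 to 0.54 in pLV-SEMA6A, and Epcam and Cdx2 were listed at 0 in every library. Markers of leukocytes summed to at most 2.53 TPM over 8 genes, with Cd3e, Adgre1 and Itgam among those at 0, and markers of endothelial cells to at most 0.56 TPM over 6 genes, with Cdh5 and Tie1 at 0. The 8 fibroblast markers summed to 115.9 to 132 TPM in pLV-Control, against 178 to 184 in pLV-SEMA6A, most of it from Col3a1, and none of them was at 0 in every library. Of the 4 fibroblast markers tested, Col1a1 and Col3a1 rose and Pdgfra fell (log2 fold change −0.63, limma adjusted p = 0.0219), so they did not all move in the same direction. Their part in the results for the 10 factors was not tested.

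Groups were compared by limma, which borrows the spread across genes, on log2(TPM + 1) of the 12510 genes averaging 1 TPM or more. The log2 fold changes given are on that scale and understate the change of low genes such as Fosb. Genes were DEGs when the Benjamini-Hochberg adjusted p was under 0.05 and the log2 fold change exceeded 0.5 in either direction. With 3 libraries per group, the smallest two-sided p of an exact permutation test is 0.1. Values after ± are SD over the 3 libraries of a group.

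Of the 10 factors, 9 were tested and Fos was below the filter. Atf3 rose, while Egr1, Fosb and Fosl2 fell. The members thus gave 1 DEG in the upward and 3 in the downward direction, against a background of 5.12% and 10.8% of all genes tested. Members and the lists used below were chosen with earlier results of these data known, so their counts are not independent of the data. Without the minimum fold change, 2 members were higher and 6 lower at an adjusted p under 0.05 from limma, against 19.5% and 28.2% of all genes tested. The libraries of the groups did not overlap for 9 members, of which 3 were higher and 6 lower in pLV-SEMA6A, while 23.8% of all genes tested were higher and 34.7% lower in this way. The median log2 fold change was −0.32 over the 9 tested members and −0.06 over all genes tested. Centring each library on its median turned the split of all DEGs from 640 higher and 1347 lower to 1002 higher and 961 lower. In bulk RNA, fewer cells expressing a gene and less of its RNA per cell cannot be told apart.

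**Figure D1:**
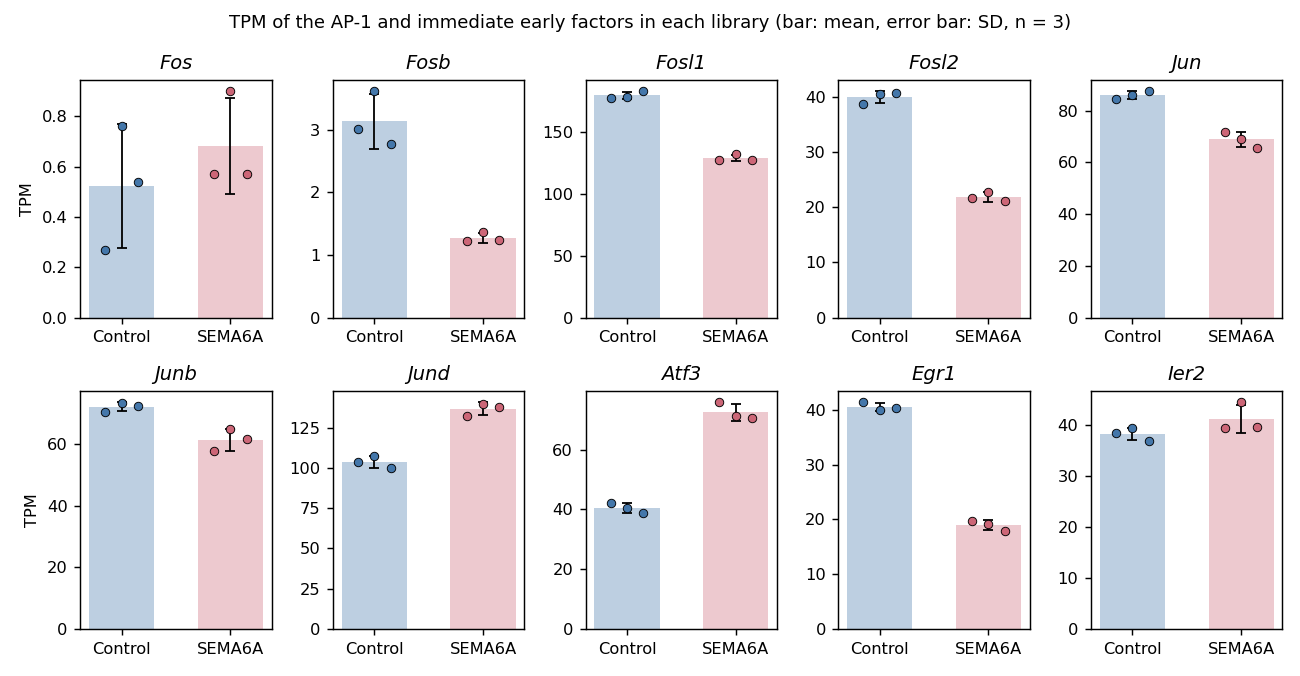
TPM (vertical axis, from 0, scaled to each gene) of the 10 factors in the 3 pLV-Control and 3 pLV-SEMA6A libraries. Points are libraries, bars are means and error bars are SD. Of the 10 genes, only Fos overlaps between the groups, and Ier2 parts from 39.39 to 39.45 TPM.

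Promoter windows from RefSeq on GRCm38.p6, from 250 bases before to 50 after the start, were matched for 7 of the 10 members. No window was used for Fosl1, Egr1 or Ier2, so their promoters were not searched for any motif. Sites outside the windows were not searched either. The submitters' processing notes name mm39, so these positions belong to another build than the files. The 100 bases before the start are printed for Fosb and Fosl2, which fell, for Atf3, which rose, and for Fos and Jun, the namesakes of the families. They are written 5′ to 3′ on the strand of the gene, with capitals marking matches to the motifs searched. They lie at chr12:85473790-85473889 (Fos, plus strand), chr7:19310046-19310145 (Fosb, minus strand), chr5:32136372-32136471 (Fosl2, plus strand), chr4:95052223-95052322 (Jun, minus strand) and chr1:191183334-191183433 (Atf3, minus strand).
Fos: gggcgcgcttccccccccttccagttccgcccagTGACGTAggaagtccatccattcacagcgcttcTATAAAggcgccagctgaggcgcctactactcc
Fosb: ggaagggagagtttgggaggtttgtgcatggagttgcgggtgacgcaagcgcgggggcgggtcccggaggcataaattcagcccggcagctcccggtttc
Fosl2: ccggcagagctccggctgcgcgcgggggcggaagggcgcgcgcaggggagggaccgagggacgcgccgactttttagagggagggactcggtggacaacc
Jun: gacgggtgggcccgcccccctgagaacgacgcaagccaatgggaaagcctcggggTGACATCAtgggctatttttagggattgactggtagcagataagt
Atf3: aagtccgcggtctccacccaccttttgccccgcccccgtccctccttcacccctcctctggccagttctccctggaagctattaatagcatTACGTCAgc

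Both strands of the 300-base windows were searched. TGACATCA, the site of the Jun promoter that JUN and ATF2 bind, was in the window of Jun, at −45 from the start, and in 3.62% of all 32817 windows. The AP-1 site, TGACTCA or on the other strand TGAGTCA, was in 5.2% of all windows, the cAMP response element TGACGTCA in 1.79% and the CArG box of serum response factor in 1.63%, and none of these was in the windows of the 7 members. TGACGTA, which shares its first letters with the cAMP response element, and TATAAA were added after the sequences were seen. TGACGTA was in the windows of Fos, at −66, and of Atf3, on the opposite strand, and in 1.27% of all windows. TATAAA was in those of Fos, at −33, and of Junb, beginning at position 1, the start itself, and in 13.6% of all windows. The windows of Fosb and Fosl2 held no match to any motif searched. A match is a description of the letters and not a binding site in SL4 cells.

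The FOS family members differed widely in level. Fosl1, which encodes FRA-1, a FOS protein typical of transformed and invasive cells, was the most abundant of them in every library. It measured 178, 178 and 183 TPM across the pLV-Control libraries, compared with 128, 132 and 127 TPM across those of pLV-SEMA6A. Every pLV-SEMA6A library lay below every pLV-Control library. The log2 fold change of −0.47 (95% interval −0.54 to −0.41, limma adjusted p = 4.46e-05) stopped short of the minimum, so Fosl1 was not counted as a DEG. In GENCODE M21, 57.2% of the exonic bases of Fosl1 lie opposite exons of Ccdc85b. Ccdc85b averaged 19.0 TPM in pLV-Control, against 13.3 in pLV-SEMA6A. The sources used here do not say whether counting used strand, and without it the reads of both genes cannot be told apart over the shared bases.

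Fosl2, which encodes FRA-2, was the second FOS family gene by level in every library. It measured 38.8, 40.5 and 40.7 TPM in pLV-Control, compared with 21.7, 22.8 and 21.1 TPM in pLV-SEMA6A. The groups were far apart for their spread, and Fosl2 fell by 0.84 on the log2 scale (SE 0.05, limma adjusted p = 3.52e-05). Fosb, whose product is a strong activator induced together with Fos, was low throughout. It measured 3.02, 3.62 and 2.77 TPM in pLV-Control, compared with 1.22, 1.36 and 1.24 TPM in pLV-SEMA6A. The groups did not overlap, with a gap wider than either range, and Fosb fell by 0.86 on the log2 scale (SE 0.13, limma adjusted p = 0.00231). The mean TPM itself was 2.46 times as high in pLV-Control.

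Fos, the prototype immediate early gene, was barely detected. It measured 0.27, 0.76 and 0.54 TPM in pLV-Control, compared with 0.57, 0.90 and 0.57 TPM in pLV-SEMA6A. The ranges overlap, and the exact permutation test of log2(TPM + 1) gave p = 0.4 (two-sided). When no filter was applied, limma gave Fos an adjusted p of 0.558. The read depth behind these values is unknown, and a difference in Fos was not detectable here.

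The JUN family members did not all differ in the same direction. Jun, the main activator of the family, measured 84.5, 86.2 and 87.5 TPM in pLV-Control, compared with 71.7, 69.2 and 65.6 TPM in pLV-SEMA6A. Junb, which can oppose the activity of JUN on some promoters, measured 70.5, 73.4 and 72.3 TPM in pLV-Control, compared with 57.6, 64.9 and 61.6 TPM in pLV-SEMA6A. Both genes were lower in every pLV-SEMA6A library, by less than the minimum fold change. For Jun the log2 fold change was −0.32 (95% interval −0.42 to −0.22, limma adjusted p = 0.00102). For Junb it was −0.23 (95% interval −0.35 to −0.11, limma adjusted p = 0.00884), and after centring each library on its median the limma adjusted p was 0.0577.

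Jund, whose product restrains growth in some cells and is present in resting cells, differed the other way. It measured 103.8, 107 and 100.2 TPM in pLV-Control, compared with 133, 140.03 and 138 TPM in pLV-SEMA6A. Every pLV-SEMA6A library lay above every pLV-Control library, at a log2 fold change of 0.40 (95% interval 0.31 to 0.48, limma adjusted p = 0.000293), again under the minimum. The ratio of Jund to Jun, which does not depend on how a library was scaled, was 1.23, 1.25 and 1.15 in pLV-Control, compared with 1.85, 2.02 and 2.10 in pLV-SEMA6A. Exons of other genes lie opposite 52.6% of the exonic bases of Jund (Gm11175), 7.52% of those of Junb (Prdx2) and 7.28% of those of Jun (Junos). Gm11175 averaged 0.453 TPM in both groups, Junos 6.54 TPM in pLV-Control, against 4.86 in pLV-SEMA6A, and Prdx2 166 and 154 TPM.

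**Figure D2:**
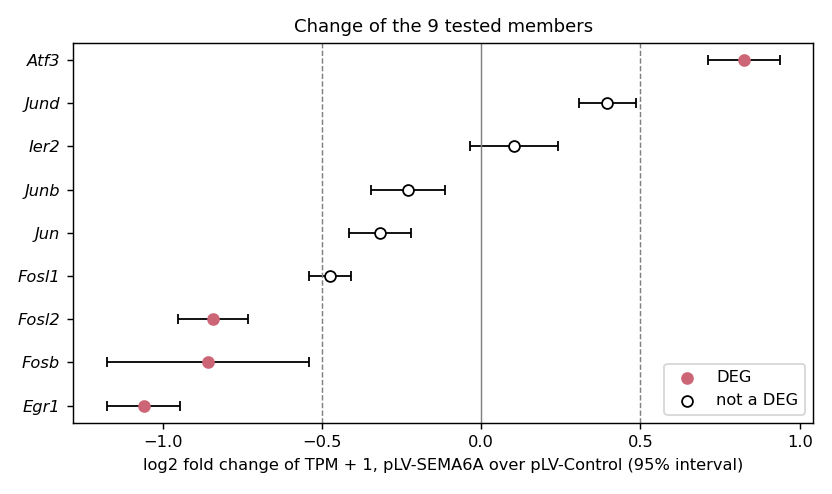
Log2 fold change of TPM + 1 (horizontal axis) for the 9 tested factors, with 95% intervals from limma, dashed lines at the minimum of 0.5 on either side and filled points for DEGs. Egr1, Fosb, Fosl2 and Atf3 lie beyond the minimum, and of the 9 intervals only that of Ier2 spans 0.

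Because TPM is per length, the make-up of each family can be read within a library. Fosl1 held 80.9%, 79.9% and 80.6% of the summed TPM of the FOS family in pLV-Control, compared with 84.5%, 84.1% and 84.8% in pLV-SEMA6A. Fosl2 held 17.9% ± 0.27 in pLV-Control and 14.3% ± 0.25 in pLV-SEMA6A, and Fos and Fosb together made up the small remainder. The sum of the FOS family averaged 223 ± 3.73 TPM in pLV-Control, compared with 152.9 ± 3.76 TPM in pLV-SEMA6A.

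The JUN family had overlapping sums with another make-up. The sum averaged 262 ± 4.41 TPM in pLV-Control, compared with 267 ± 6.31 TPM in pLV-SEMA6A. Jund held 40.1%, 40.2% and 38.5% of it in pLV-Control, compared with 50.6%, 51.1% and 52.0% in pLV-SEMA6A. The share of Jun was 32.9% ± 0.70 against 25.8% ± 1.41, and that of Junb 27.5% ± 0.29 against 23.0% ± 0.87. The JUN family sum divided by the FOS family sum was 1.14 to 1.20 in pLV-Control, compared with 1.73 to 1.77 in pLV-SEMA6A. These shares and ratios describe transcripts, were not tested, and do not give the amounts of the dimers.

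**Figure D3:**
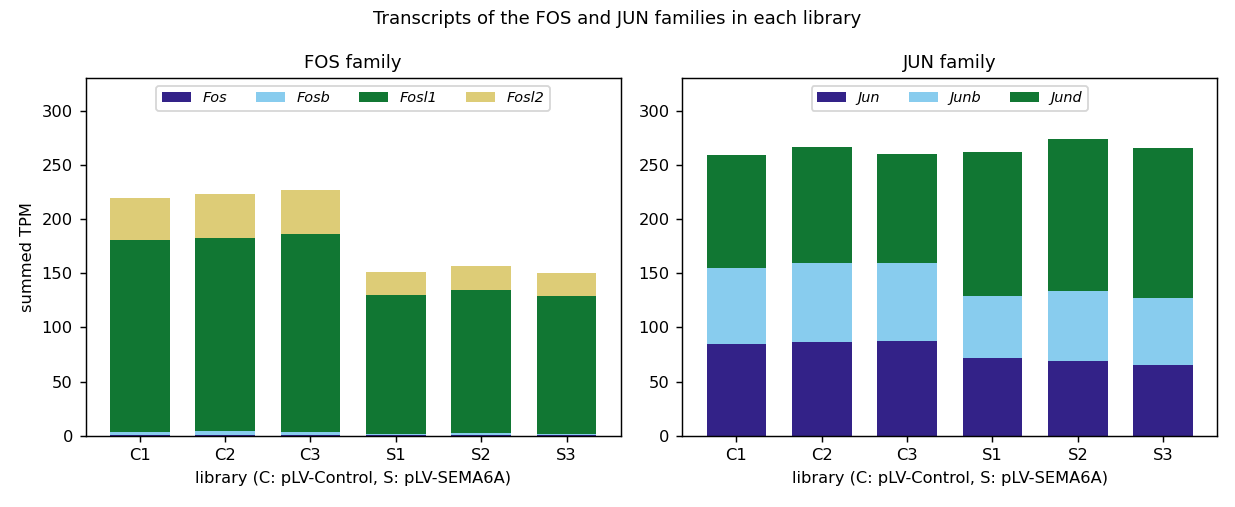
Summed TPM (vertical axis) of the FOS family and the JUN family in each pLV-Control (C1 to C3) and pLV-SEMA6A (S1 to S3) library, stacked by gene. The FOS bars average 223 and 152.9 TPM, and the JUN bars average 262 and 267 TPM with a larger Jund part in pLV-SEMA6A.

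Atf3, a stress-induced bZIP factor that pairs with JUN proteins and represses many promoters as a homodimer, was the member that rose as a DEG. It measured 42.2, 40.6 and 38.8 TPM in pLV-Control, compared with 75.8, 71.4 and 70.5 TPM in pLV-SEMA6A. The groups did not overlap, and the log2 fold change was 0.82 (SE 0.05, limma adjusted p = 4.03e-05), a ratio of means of 1.79. Ordered from the largest rise, Atf3 ranked 255 among the 12510 genes tested.

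Egr1, a zinc finger factor induced by ERK signaling through serum response factor and its ETS partners, had the largest fall of the members on the log2(TPM + 1) scale, while Fosb had the larger ratio of mean TPM (2.46 against 2.14) and, with a pseudocount of 0.1, the larger log2 fold change (−1.23 against −1.09). It measured 41.4, 39.9 and 40.4 TPM in pLV-Control, compared with 19.76, 19.12 and 17.97 TPM in pLV-SEMA6A. The highest pLV-SEMA6A library was far under the lowest pLV-Control library. Egr1 fell by 1.06 on the log2 scale (SE 0.05, limma adjusted p = 1.6e-05) and ranked 368 when genes were ordered from the largest fall. Atf3 and Egr1 stood at nearly the same level in pLV-Control, where their ratio was 1.02, 1.02 and 0.961, compared with 3.84, 3.73 and 3.92 in pLV-SEMA6A.

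Ier2, a small nuclear protein encoded by an immediate early gene, had the smallest log2 fold change of the tested members without centring. It measured 38.4, 39.4 and 36.9 TPM in pLV-Control, compared with 39.5, 44.4 and 39.7 TPM in pLV-SEMA6A. The libraries of the groups part by a narrow gap, from 39.39 to 39.45 TPM. The log2 fold change was 0.10 (95% interval −0.03 to 0.24, limma adjusted p = 0.182), and centring each library on its median gave 0.20 (limma adjusted p = 0.0258), larger in size than the centred −0.14 of Junb.

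The order of the levels differed between the groups. In pLV-Control, Fosl1 was followed by Jund, Jun and Junb, with no overlap between neighbours. Egr1, Atf3, Fosl2 and Ier2 came next, together between 36.9 and 42.2 TPM, where each overlapped its neighbour in the order, and Fosb and Fos came last. In pLV-SEMA6A, Jund led with 132.54 to 140.03 TPM and Fosl1 followed with 127.34 to 132.12 TPM. Atf3 came next and overlapped Jun, Junb lay just under Jun, and Ier2 stood above Fosl2 and Egr1, which did not overlap. The coefficient of variation of the TPM within a group was between 1.71% and 6.82% for the 8 members other than Fos and Fosb. It was 46.9% and 28.0% for Fos, and 13.9% and 5.95% for Fosb, in pLV-Control and pLV-SEMA6A respectively.

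The genes of most similar pattern over the 6 libraries were sought for Egr1 and Fosb, the members with the largest absolute log2 fold change on the log2(TPM + 1) scale. Likeness was the root mean square difference of log2(TPM + 1) after centring each gene on its own mean, among genes averaging 10 TPM or more. Closest to Egr1 were Nrn1 (0.024), Pan2 (0.027) and Eif2ak2 (0.033). Closest to Fosb were Hltf (0.053), Bet1 (0.063) and Man2b1 (0.064). These patterns consist mainly of the difference between the groups.

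Other immediate early genes were examined with a list of 52, of which 47 were tested. Among them 4 rose and 14 fell as DEGs, against 5.12% and 10.8% of all genes tested, and the median log2 fold change was −0.12. After centring each library on its median, 6 of the list rose and 11 fell as DEGs, while 1002 and 961 of all genes tested did. Gadd45b, a stress-response gene that acts on MAP kinase signaling, averaged 33.0 ± 2.18 TPM in pLV-Control and 9.84 ± 1.47 in pLV-SEMA6A (log2 fold change −1.66). Ptgs2, the inducible enzyme of prostaglandin synthesis, averaged 159.8 ± 1.53 and 66.0 ± 1.54 TPM (−1.26). Ccn1, a secreted matricellular protein, averaged 739 ± 17.6 and 314 ± 9.05 TPM (−1.23), and Plk2, a polo-like kinase, had a log2 fold change of −0.90.

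Among the 4 that rose, Zfp36l2, an RNA-binding protein that speeds mRNA decay, averaged 83.6 ± 1.86 TPM in pLV-Control and 120.7 ± 2.18 in pLV-SEMA6A (log2 fold change 0.53). Areg, a ligand of the EGF receptor, was low, with 2.61, 2.39 and 1.04 TPM in pLV-Control, compared with 4.39, 4.07 and 4.72 TPM in pLV-SEMA6A. Its limma adjusted p was 0.0194, and was 0.0533 without pLV-SEMA6A replicate 1 and 0.0612 without pLV-SEMA6A replicate 3. Hes1, a transcriptional repressor that acts downstream of Notch (log2 fold change 0.68), lost its call without the same libraries (limma adjusted p = 0.0632 and 0.0624). Gadd45g, a relative of Gadd45b (log2 fold change 0.51), lost it in all fits that left out a library but that without pLV-Control replicate 3, with limma adjusted p from 0.0592 to 0.0839. Egr2, Egr3, Egr4, Nr4a3 and Npas4 were below the filter.

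The bZIP proteins that pair or compete with FOS and JUN numbered 25, of which 20 were tested, with 1 DEG higher and 2 lower and a median log2 fold change of −0.12. These counts are near the background of 5.12% and 10.8% of all genes tested. Atf5, a stress-response factor, averaged 334 ± 4.12 TPM in pLV-Control and 590.2 ± 13.3 in pLV-SEMA6A (log2 fold change 0.82). Maff, a small MAF protein without an activation domain, averaged 62.5 and 35.997 TPM (−0.78). Batf3, a partner of JUN proteins known from dendritic cells, had 3.49, 6.06 and 3.91 TPM in pLV-Control, compared with 2.89, 2.03 and 2.49 TPM in pLV-SEMA6A. Its limma adjusted p of 0.0364 became 0.050 to 0.101 in all fits that left out a library but that without pLV-Control replicate 1.

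Of the 38 upstream kinases and factors, 35 were tested, and their median log2 fold change was −0.06. Limma called 0 of them higher and 3 lower as DEGs, against 5.12% and 10.8% of all genes tested. By adjusted p alone 7 were higher and 9 lower, against 19.5% and 28.2%. Mapk12, a p38 kinase, averaged 18.4 ± 1.34 TPM in pLV-Control and 10.45 ± 0.55 in pLV-SEMA6A (log2 fold change −0.76). Mapk13, another p38 kinase, had a log2 fold change of −0.70. Elk4, an ETS partner of serum response factor, had −0.56, which was −0.49 without pLV-SEMA6A replicate 2 and −0.47 with each library centred on its median, both short of the minimum. Of the 23 brakes on these factors, 22 were tested and limma called 0 of them as DEGs, against the same 5.12% and 10.8%. By adjusted p alone 3 brakes were higher and 7 lower, against 19.5% and 28.2% of all genes tested. Cop1, part of a ubiquitin ligase that targets JUN, was the most abundant of them, at 146 ± 13.1 TPM against 122.7 ± 4.48 TPM. Nab2, a co-repressor that binds EGR1, is named after its values were seen, with a log2 fold change of −0.22 (limma adjusted p = 0.00722).

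Known targets of AP-1 or EGR1 moved in both directions. Of 40 listed, 30 were tested, with 7 DEGs higher and 8 lower, against a background of 5.12% and 10.8%, and a median log2 fold change of −0.10. Those that fell included, on the log2 scale, Ccl2, a chemokine for monocytes (−1.56), Hmox1, which breaks down heme (−1.20), and Cxcl1, a chemokine for neutrophils (−1.08). The largest rises were in the metallothioneins, with Mt2 at 582 ± 27.1 TPM in pLV-Control and 2418 ± 27.1 in pLV-SEMA6A (log2 fold change 2.05) and Mt1 at 594 ± 11.9 and 1643 ± 44.5 TPM (1.47). Areg and Lmna, which encodes the nuclear lamins A and C, followed with 0.88 and 0.86. A link between these genes and the 10 factors was not tested.

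**Figure D4:**
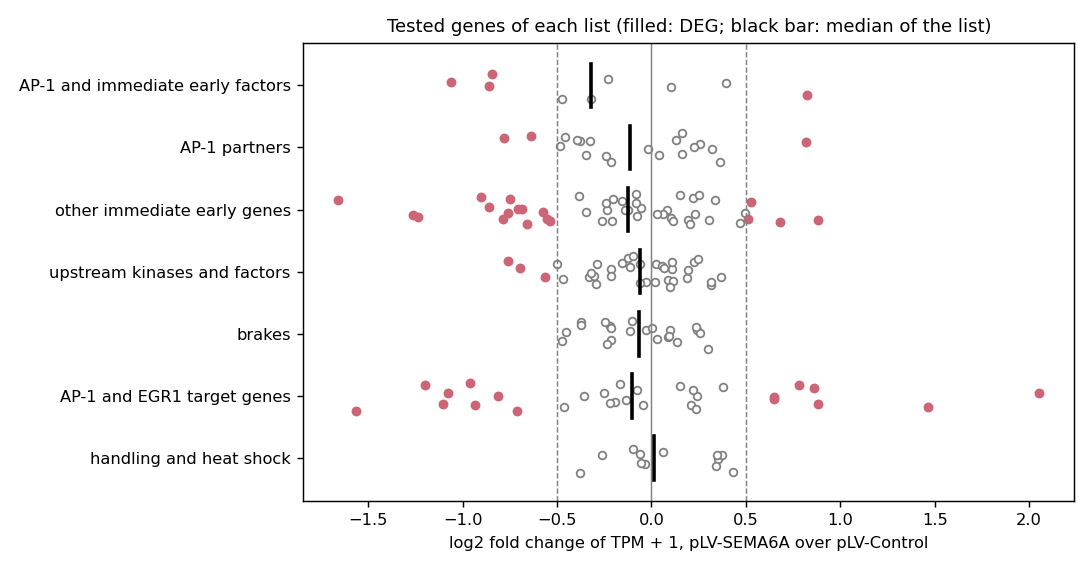
Log2 fold change of TPM + 1 (horizontal axis) of every tested gene in each list, with filled points for DEGs, black bars at the list medians and dashed lines at 0.5 on either side. Points are spread vertically at random. The targets lie on both sides with 7 DEGs higher and 8 lower, and the brakes and heat shock genes have none.

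Immediate early genes also respond to the handling of cells, and heat shock genes were listed as a measure of stress. Of 14, 12 were tested and limma called 0 as DEGs, against 5.12% and 10.8% of all genes tested. By adjusted p alone 6 were higher and 3 lower, against 19.5% and 28.2%. Their median log2 fold change was 0.01, and their summed level was 4845 to 4927 TPM in pLV-Control, against 5091 to 5113 in pLV-SEMA6A. Hsp90ab1, the most abundant, had a log2 fold change of 0.06. Named after the values were seen, Dnaja1 had the largest rise of those tested (0.43, limma adjusted p = 0.000177). Dnajb4 had the largest fall (−0.38, limma adjusted p = 0.000227), and both were under the minimum. The strongly inducible Hspa1a and Hspa1b were below the filter, at group means of at most 0.023 and 0.77 TPM. The part of handling in the values of the 10 factors was not tested.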

How the data were processed

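Libraries were made from oligo(dT)-captured mRNA of 3 pLV-Control and 3 pLV-SEMA6A samples of SL4 cells. The authors deposited TPM per library for 53700 identifiers, and group means, which were not used. The submitters' processing notes name HISAT, Bowtie2, RSEM and mm39, without versions or roles, and the annotation is not given in the sources used here. Neither the header nor the labels name the unit. It was taken as TPM because the libraries sum to between 977400 and 986444 and because low values depend on length, with a 5th percentile of non-zero values of 0.25 to 0.288 for genes under 500 exonic bases and 0.03 to 0.04 for genes over 5000. Depth is unknown, so no interval or floor that needs it was computed.

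The 12510 genes averaging 1 TPM or more were fitted on log2(TPM + 1) with limma 3.58.1 (trend option, group only) in R 4.3.3, and p-values were adjusted over all of them by the Benjamini-Hochberg method. The steps were tested on simulated data. DEGs needed an adjusted p under 0.05 and a log2 fold change beyond 0.5 in either direction. The supplement gives these limits with limma in its section on functional enrichment. Its RNA-seq section names DESeq2, which the authors used, and no limits. That tool models counts and was not run here, since the values are TPM.

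The members and lists were chosen with earlier results of these data known. The genes named are the 10 members, the 4 largest rises and falls among DEGs of the lists of immediate early genes and of targets, the 3 largest of the other lists, the most abundant gene of a list without DEGs, the 3 genes of most similar pattern, and Sema6a. A symbol with several identifiers took the one with the highest mean TPM. Rps6ka4 is not analysed here. Some single genes that the rule or the marker lists name are not reported here. Some genes stand in more than 1 list. Overlaps and 31-base stretches were taken from GENCODE M21 by identifier (GRCm38), and at most 0.0622% of a member's stretches occur in other genes. Promoter sequences are from RefSeq on GRCm38.p6, matched by symbol.

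The alternatives were a pseudocount of 0.1, no filter, a mean of at least 5 TPM, no minimum fold change and a minimum of 1, the replicate block, median centring, scaling to the 75th percentile, limma without trend and leaving out each library in turn.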

Additional observations from a re-analysis of the deposited data

How the results depend on the processing

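The number of DEGs depended most on the minimum fold change. With no minimum, 5959 of the 12510 genes tested were called (2436 or 19.5% higher, and 3523 or 28.2% lower). Beside this stood 8 of 9 members, 12 of 20 partners, 32 of 47 other immediate early genes and 16 of 35 upstream genes. For the other lists it was 10 of 22 brakes, 24 of 30 targets and 9 of 12 heat shock genes. A minimum log2 fold change of 1 left 385 of all genes (81 higher and 304 lower), 1 member (Egr1), 3 other immediate early genes and 6 targets, and 0 partners and 0 upstream genes. After centring each library on its median, 1002 genes were higher and 961 lower, in place of 640 and 1347, and 1 heat shock gene was called. The 4 members counted as DEGs kept their call and direction in each fit that tested them, except that Fosb, Fosl2 and Atf3 were under the minimum of 1. Fosb was not tested with a mean of at least 5 TPM. With no filter on low values, the calls of Areg, Hes1, Gadd45g and Batf3 were lost (limma adjusted p from 0.0547 to 0.0963). Leaving out each library in turn gave 0 to 1 called brakes, and 1900 to 1975 DEGs.

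Deviations from the group mean did not go together in same-numbered libraries (correlations of −0.08 to −0.02, against −0.01 to 0.08 between other numbers). These correlations constrain one another at 3 libraries per group, so they cannot decide whether the numbers pair the samples. With the replicate block, 1924 genes and the same count of 4 members were called, and Batf3 was not (adjusted p = 0.0832 from limma). TPM keeps no depth, so the precision of low genes such as Fos is unknown.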
